A study of Mus musculus with 4 samples.

Results

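The 7 genes described here encode receptors for neurotransmitters and neuromodulators: the adrenergic receptor Adrb1, the GABA-B receptor subunit Gabbr1, the adenosine receptors Adora1, Adora2a and Adora3, the serotonin receptor Htr2b and the cannabinoid receptor Cnr2. They were taken by symbol from the 28692 genes of the deposited gene table, in which each symbol occurred once. All are G protein-coupled receptors. Adrb1 and Adora2a couple to Gs, which raises cyclic AMP, and Adora1, Adora3, Cnr2 and the GABA-B receptor couple to Gi, which lowers it or opens potassium channels, while Htr2b couples to Gq, which activates phospholipase C. Microglia, the resident macrophages of the brain, are known to change the movement of their processes and their cytokine release when such receptors are engaged. The GABA-B receptor is an obligate pair of subunits: Gabbr1 binds GABA and Gabbr2 is needed to bring the receptor to the cell surface and to couple it to the G protein.

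Single cells were profiled from 1 group of 4 male C57BL/6J mice aged 90 days, with 1 library per mouse. PBS had been injected into the tail vein of each mouse. The labels put this 24 hours before sacrifice and the study's methods give another interval, so this time is uncertain. Cortex and hippocampus were dissociated by cold Dounce homogenisation, mechanically and on ice, and live CD45+ and CD11b+ cells were sorted, although the sources differ on whether CX3CR1 was part of the gate. The mice were not all handled alike. Per the study's methods the sorter clogged during the last animal, whose cells were then sorted again after more time at room temperature. The study reports that this induced a signature of ex vivo activation in that animal and not in the others. In the present counts the genes of that signature were highest in replicate 4, as given below. The labels do not say which library came from that animal. There was no second treatment, so the comparisons are between replicates and between cells of the same mouse. A cell was kept if it had 400 genes or more and no more than 10% of its UMIs (unique molecular identifiers, each 1 counted RNA molecule) from mitochondrial genes, leaving 13002 of 13138 barcodes, with 2576 to 3692 per library, 5841671 to 11267195 UMIs per library and medians of 1905 to 2936 UMIs per cell. The same 81 barcode sequences occurred in 2 or more libraries.

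All 11 microglial markers were detected in every library and together gave 41337 to 42590 CPM (UMIs scaled to 1000000 per library). The neutrophil and erythroid markers were at 0 UMIs, macrophage markers summed to 12.6 to 84.8 CPM and MHC class II genes to 224 to 1196 CPM. Replicate 4 stood out in the genes of the study's ex vivo activated microglia (exAM) list, which summed to 4638 CPM there and to 2751, 2821 and 2909 CPM in replicates 1, 2 and 3.

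Of the 7 receptor genes, 3 were measured well, 1 was measured at a low level and 3 were at or near 0. Adora3 had the highest level, followed by Adrb1, Gabbr1 and Cnr2, in this order in each of the 4 libraries and with no overlap between the ranges of neighbouring genes. The ratio of the mean levels was 2.67 between Adora3 and Adrb1, 1.66 between Adrb1 and Gabbr1 and 7.39 between Gabbr1 and Cnr2. Levels are CPM of the UMIs summed over the cells of a library, and since a 3′ library yields 1 tag per molecule whatever its length, they can be compared between genes without division by length. In summed libraries, fewer cells with a transcript and fewer transcripts per cell cannot be told apart.

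Adora3 (ENSMUSG00000000562, GRCm38 chr3:105870858-105908926, plus strand) encodes the A3 adenosine receptor. Its level was 241, 217, 214 and 191 CPM in replicates 1 to 4 (1702, 2446, 1248 and 1718 UMIs), a mean of 216 ± 20.6 CPM (SD, n = 4). Replicate 1 was the highest and replicate 4 the lowest, and their ratio was 1.26. Counting error alone gives an SD of 5.27 CPM. The gene's span overlaps Tmigd3 on the same strand, and 20.9% of the Adora3 exonic bases are also in an exon of that gene. The last exon of Adora3 (chr3:105907289-105908926), where 3′ tags are expected, shares 0 bases with Tmigd3, whose own mean level was 1.81 CPM.

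Adrb1 (ENSMUSG00000035283, chr19:56722199-56733113, plus strand) encodes the beta1-adrenergic receptor. Its level was 80.2, 65.0, 81.3 and 96.7 CPM (566, 732, 475 and 870 UMIs), a mean of 80.8 ± 12.9 CPM (SD, n = 4). Replicate 2 was the lowest and replicate 4 the highest, 1.49 times as high, and counting error alone gives an SD of 3.23 CPM.

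Gabbr1 (ENSMUSG00000024462, chr17:37045966-37075067, plus strand) was the most even of the receptor genes. Its level was 48.6, 48.7, 51.4 and 45.4 CPM (343, 549, 300 and 409 UMIs), a mean of 48.5 ± 2.42 CPM (SD, n = 4). The libraries differed by no more than sampling noise, which gives an SD of 2.50 CPM. Its partner subunit Gabbr2 had 0 UMIs in every library, so that a level above 0.514 CPM, 3 UMIs in the smallest library, would have been detectable.

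Cnr2 (ENSMUSG00000062585, chr4:135895394-135920207, plus strand) encodes the cannabinoid receptor of immune cells. Its level was 6.24, 5.77, 5.48 and 8.78 CPM (44, 65, 32 and 79 UMIs), a mean of 6.56 ± 1.51 CPM (SD, n = 4). Replicate 4 was the highest, but its 95% exact Poisson interval (6.95 to 10.9 CPM) overlapped that of replicate 1 (4.53 to 8.37 CPM). Cnr1, the cannabinoid receptor of neurons, had 0 UMIs in every library.

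The remaining genes gave almost no counts. Adora1 (ENSMUSG00000042429, chr1:134199223-134235431, minus strand) had 2, 3, 1 and 0 UMIs, Htr2b (ENSMUSG00000026228, chr1:86099026-86111970, minus strand) had 1 UMI in replicate 2 and 0 elsewhere, and Adora2a (ENSMUSG00000020178, chr10:75316877-75334784, plus strand) had 0 UMIs in every library. Adora1 shares 1162 bases of its last exon with Mybph on the opposite strand. The neuronal gene Snap25, which microglia should lack, had 8, 9, 3 and 5 UMIs, so the counts of these 3 genes were no higher than that background. For a gene at 0, the floor of 3 UMIs corresponds to 0.425, 0.266, 0.514 and 0.333 CPM in replicates 1 to 4. The other adenosine receptor that couples to Gs, Adora2b, had 3, 0, 0 and 1 UMIs, and Adora3 alone gave 99.7 to 99.9% of all adenosine receptor UMIs in each library.

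**Figure D1:**
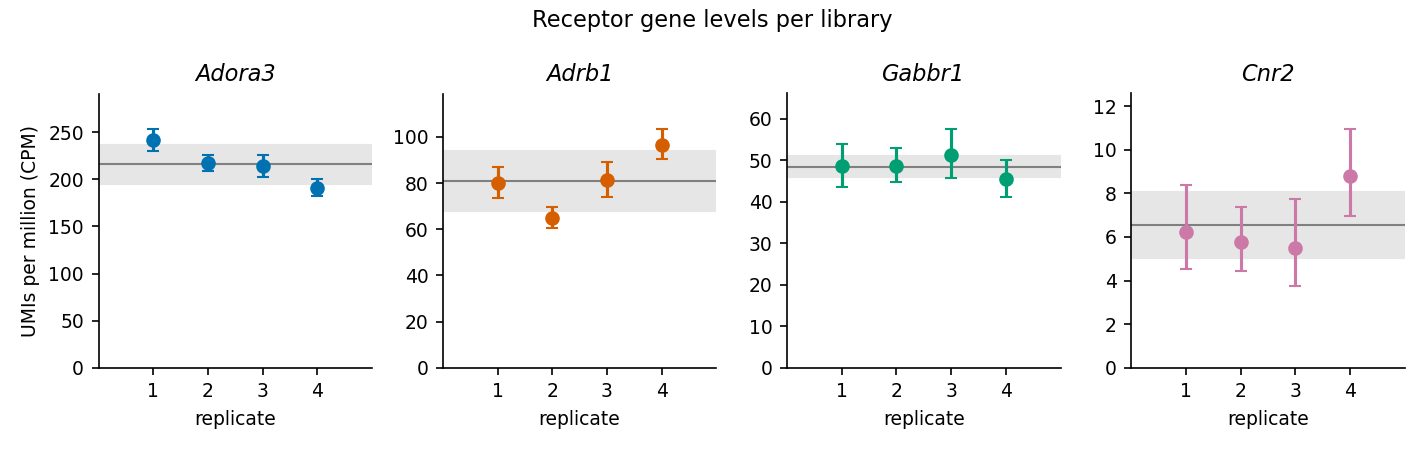
Level in CPM (vertical axes from 0, with a scale of its own for each gene) of the 4 measurable receptor genes in the 4 libraries (horizontal axes). Points are libraries with 95% exact Poisson intervals, which cover counting error only, the line is the mean and the band 1 SD (n = 4). Gabbr1 lies between 45.4 and 51.4 CPM, while Adora3 runs from 191 to 241 CPM and Adrb1 from 65.0 to 96.7 CPM.

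A library that stood apart was sought by the two-sided range test of Dixon on log2(CPM + 1), which sets the distance from an extreme value to the next one against the whole range. None of the 3 receptor genes at a mean of 10 CPM or more had a library apart, against 354 of 7656 genes (4.62%). The ratios were 0.530 for Adrb1, 0.551 for Gabbr1 and 0.481 for Adora3, and 0.731 for Cnr2. All lay below the critical ratio for 4 values. Replicate 4, with the high exAM level, had the highest Adrb1 and Cnr2 levels and the lowest Adora3 and Gabbr1 levels. Without it the means were 75.5 CPM for Adrb1, 224 CPM for Adora3 and 49.6 CPM for Gabbr1. Whether the exAM level or the interrupted sort had a part in these differences was not tested.

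The promoters of the 3 best measured genes are shown because their transcripts differed in how they varied between cells, as described further on. Each run is the 250 bases before the RefSeq transcription start on GRCm38.p6, 5′ to 3′ on the plus strand: chr3:105904171-105904420 for Adora3, chr19:56721867-56722116 for Adrb1 and chr17:37045716-37045965 for Gabbr1. Capitals mark the motif GAGGAAG, a core of sites for the macrophage factor PU.1, searched on both strands.
Adora3 promoter: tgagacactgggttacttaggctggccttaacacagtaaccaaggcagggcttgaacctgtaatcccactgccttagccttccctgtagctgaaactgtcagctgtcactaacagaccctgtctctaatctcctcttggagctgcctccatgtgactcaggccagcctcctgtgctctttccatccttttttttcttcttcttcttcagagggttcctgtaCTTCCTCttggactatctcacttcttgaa
Adrb1 promoter: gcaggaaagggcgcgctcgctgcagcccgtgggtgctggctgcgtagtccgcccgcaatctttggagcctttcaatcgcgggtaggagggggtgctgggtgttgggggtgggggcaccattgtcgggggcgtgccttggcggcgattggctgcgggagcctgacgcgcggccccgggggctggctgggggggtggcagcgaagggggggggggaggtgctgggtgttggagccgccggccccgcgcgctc
Gabbr1 promoter: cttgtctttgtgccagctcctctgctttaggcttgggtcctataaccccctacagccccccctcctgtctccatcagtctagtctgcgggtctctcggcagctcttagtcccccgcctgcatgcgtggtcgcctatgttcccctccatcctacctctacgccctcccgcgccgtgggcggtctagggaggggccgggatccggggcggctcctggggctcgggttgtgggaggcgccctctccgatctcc
The motif occurred once among these, on the minus strand of the Adora3 promoter. RefSeq held 8 promoters for 6 of the 7 receptor genes, and the Adora3 promoter was the only 1 of the 8 with these letters, against 3486 of 32851 promoters of the same length (10.6%). A match describes the letters of this window and is not evidence of binding.

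The share of cells with at least 1 UMI was low even for the most abundant genes, as each cell was sampled thinly. An Adora3 UMI was seen in 36.9, 46.9, 37.2 and 41.4% of cells in replicates 1 to 4, an Adrb1 UMI in 14.2, 17.6, 16.3 and 23.1%, a Gabbr1 UMI in 9.23, 13.5, 10.8 and 12.1% and a Cnr2 UMI in 1.23, 1.73, 1.24 and 2.47%. Replicate 1, the shallowest library, was the lowest for each of these genes. After every cell was thinned at random to 1000 UMIs, which left out 265 shallower cells (23 to 85 per library), the Adora3 share was 20.9, 19.8, 20.1 and 16.4%. The Adrb1 share at this depth was 8.07, 6.46, 7.91 and 9.64%, with exact Clopper-Pearson intervals of 5.69 to 7.30% in replicate 2 and 8.62 to 10.7% in replicate 4, which do not overlap. The Gabbr1 share was 4.21, 4.50, 4.86 and 4.83%, and the Cnr2 share 0.744, 0.518, 0.803 and 0.779%. At equal depth replicates 1 to 3 therefore lay close together for Adora3, with replicate 4 lower, and each Gabbr1 share lay within the intervals of the others. Snap25 was seen in 0.0286 to 0.0545% of the same thinned cells and Adora1 in 0 to 0.0572%, so Cnr2 lay above this background and Adora1 did not.

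Transcripts of these genes came mostly singly. Of the cells with Adora3, 3893 held 1 UMI, 1115 held 2 and 306 held 3 or more, with at most 6 in a cell. For Adrb1 the numbers were 2013, 265 and 32 cells, and for Gabbr1 1381, 102 and 5. At 1000 UMIs per cell, the variance of the Adora3 counts over cells was 1.02 to 1.04 times their mean in the 4 libraries, that of the Adrb1 counts 1.02 to 1.07 times and that of the Gabbr1 counts 0.971 to 1.02 times. At counts this low the ratio lies near 1 even where cells differ, so it says little about how even the cells were. Over all kept cells, 43.3% showed none of the 7 genes, 42.9% showed 1, 12.5% showed 2 and 1.28% showed 3, and only 3 cells showed 4. At equal depth, Adrb1 was seen in 7.56% ± 1.20 of the thinned cells with an Adora3 UMI and in 8.09% ± 1.64 of those without (SD, n = 4). Despite the lower mean, it was higher in the cells with Adora3 in 3 of 4 libraries. In replicate 4 it was lower (6.32 against 10.3%). Adora3 was seen in 19.1% ± 2.05 of the thinned cells with a Gabbr1 UMI and 19.3% ± 1.99 of those without (SD, n = 4). The pair of Adrb1 and Gabbr1 was further apart. Adrb1 was seen in 6.12, 9.70, 14.05 and 12.8% of the thinned cells with a Gabbr1 UMI and in 8.15, 6.31, 7.59 and 9.48% of those without, in replicates 1 to 4 (10.7% ± 3.53 against 7.88% ± 1.31, SD, n = 4). It was higher in the cells with Gabbr1 in 3 of 4 libraries, from 61 cells with both genes in all, and the difference was not tested.

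The wider receptor families placed these genes in context. A panel of 140 receptor genes, 139 of them in the gene table, covered adrenergic, adenosine, GABA, serotonin, cannabinoid, dopamine, histamine, acetylcholine, glutamate, glycine, opioid and neuropeptide receptors. Adora3, Adrb1 and Gabbr1 were above a mean of 10 CPM. Cnr2, the histamine receptor Hrh2 (3.96 CPM) and the neuropeptide receptor Vipr1 (3.21 CPM) lay between 1 and 10 CPM, while 40 genes were seen below 1 CPM and 92 had 0 UMIs. All 5 dopamine and all 5 muscarinic receptor genes were at 0 UMIs, and the 14 serotonin receptor genes together held 3 UMIs. Hrh2 and Vipr1 were outside the rule for named genes and were chosen after their values were seen, since their levels were closest to that of Cnr2.

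Some genes that act downstream of these receptors were more abundant than Adora3, the highest of the receptor genes, but most were not. Of 60 signalling genes, 35 reached 10 CPM and 12 reached 100 CPM, and their median level was 19.5 CPM. RGS proteins, which end G protein signals by speeding GTP hydrolysis, led with Rgs10 at 1732 ± 84.2 CPM and Rgs2 at 996 ± 21.5 CPM (SD, n = 4), and Rgs19 had 158 CPM. The Gi subunit gene Gnai2 had 547 ± 69.2 CPM and the Gs subunit gene Gnas 481 ± 8.94 CPM. Gnb2, Gng5 and Gng2, subunits of the beta-gamma complex, had 439, 402 and 111 CPM. Gna15, a Gq-class subunit gene of blood cells, had 319, 316, 349 and 319 CPM, and replicate 3 stood apart by Dixon's test (ratio 0.898). The same held for Grk6 (ratio 0.895), a gene outside the rule for named genes. Both are among the 35 signalling genes at 10 CPM or more, and 354 of all 7656 genes (4.62%) had a library apart. Arrb2, an arrestin that ends receptor signalling, had 294 ± 2.98 CPM, Prkar1a, a regulatory subunit of protein kinase A, 179.8 CPM, and the phosphodiesterase gene Pde3b 137 CPM.

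Genes that make, move or break down the ligands were present only in part. Of 26 such genes, 8 reached 100 CPM, 9 reached 10 CPM and 16 reached 1 CPM. Another 4 were seen below 1 CPM, and 6 had no UMI in any library. The median level of the 26 genes was 1.95 CPM. For endocannabinoids, those at 100 CPM or more were Abhd12 (942 CPM), Abhd6 (142 CPM) and Mgll (102 CPM), which hydrolyse 2-arachidonoylglycerol, and Daglb (357 CPM), which makes it. For adenosine they were Entpd1, which degrades extracellular ATP (339 CPM), and the nucleoside transporters Slc29a3 (216 CPM) and Slc29a1 (153 CPM).

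Adora3 and Adrb1 differed between cells of different depth. Cells above their library's median UMI count were compared with the remaining cells of the same mouse, in an edgeR quasi-likelihood test on summed UMIs with the library as a block. Only 4 of the 7 receptor genes passed the filter on low counts (Adora3, Adrb1, Gabbr1 and Cnr2), here and in the comparisons of cell states. Of these, 2 were lower in CPM in the deep cells and 0 were higher, against 5.35% of all 10422 genes lower and 7.48% higher. Adora3 had 229, 196, 191 and 176 CPM in the deep cells and 259.9, 250.5, 250.9 and 215 CPM in the shallow cells of replicates 1 to 4. The deep cells were lower in every library, though the ranges overlapped. The log2 fold difference was -0.28 ± 0.043 (SE, adjusted p = 1.10e-08). Adrb1 had 71.1, 58.4, 69.5 and 89.8 CPM in the deep and 94.4, 75.4, 101 and 108 CPM in the shallow cells. It too was lower in the deep cells of all 4 libraries, by -0.35 ± 0.063 on the log2 scale (SE, adjusted p = 1.62e-06).

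Gabbr1 and Cnr2 were not called. Gabbr1 had 49.3, 45.1, 52.7 and 47.7 CPM in the deep cells and 47.5, 54.5, 49.1 and 41.8 CPM in the shallow cells, higher in the deep cells of 3 of 4 libraries, with a log2 fold difference of 0.01 ± 0.075 (SE, adjusted p = 0.952). Cnr2 had a difference of -0.12 ± 0.204 (SE, adjusted p = 0.792), too imprecise to tell. Of the other genes of the pathway, 8 of 41 tested signalling genes were higher and 3 lower in the deep cells. Gnas (log2 fold difference 0.32), Gnai2 (0.25), Gng5 (0.22), Prkar1a (0.20), Rgs10 (0.19) and Gnb2 (0.14) were higher, and Arrb2 (-0.22) and Gna15 (-0.15) were lower. Of 13 ligand handling genes tested, 2 were lower, Slc29a1 (-0.14) and Daglb (-0.12), and 0 were higher.

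Over 5 equal bins of cells by UMI count, the level and the share of cells ran in opposite directions for Adora3 and Adrb1. Adora3 went from 262 ± 16.1 CPM in the shallowest bin through 242, 218 and 202 to 190.3 ± 26.8 CPM in the deepest (SD, n = 4), while the share of cells with an Adora3 UMI went from 32.6 to 48.7%. Adrb1 went from 104 ± 12.4 to 63.2 ± 12.5 CPM and its share from 14.5 to 19.99%. For Gabbr1 the level was 50.5 ± 2.38 CPM in the shallowest and 48.2 ± 0.540 CPM in the deepest bin, and its share went from 7.62 to 16.6%.

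**Figure D2:**
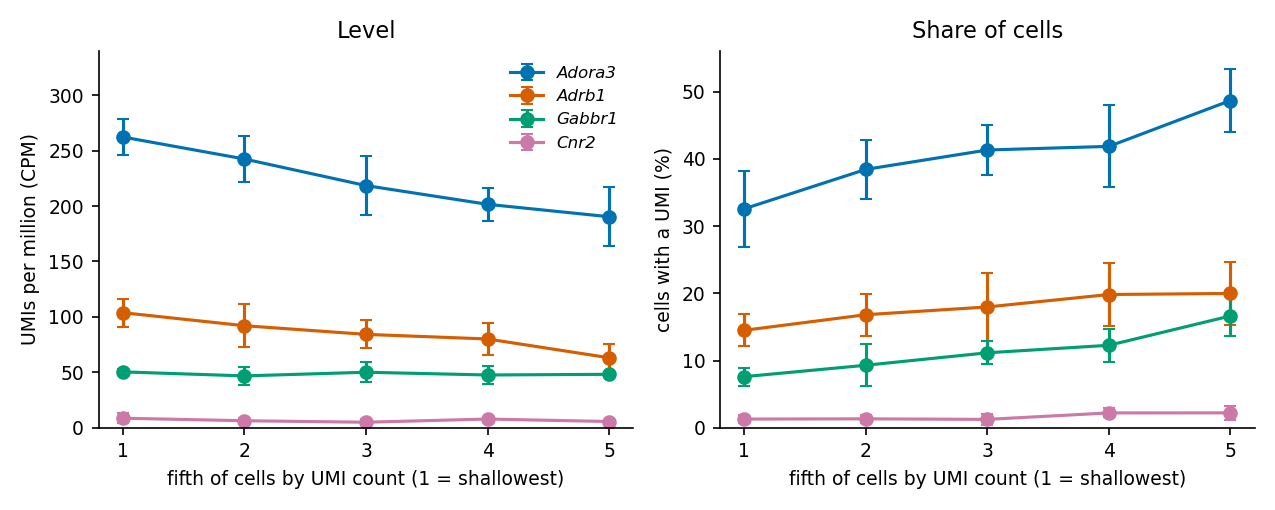
Level in CPM (left, axis from 0) and share of cells with at least 1 UMI in percent (right, axis from 0) against 5 equal bins of cells by UMI count within each library, from the shallowest (1) to the deepest (5). Points are means over 4 libraries and bars 1 SD. The Adora3 level goes from 262 to 190.3 CPM while its share goes from 32.6 to 48.7%, and the Gabbr1 level stays between 46.8 and 50.5 CPM.

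Depth also moved with the cluster a cell belonged to. Of the deep cells, 54.4% were in cluster 0 and 25.4% in cluster 1, against 25.5% and 53.2% of the shallow cells. Within single clusters, an alternative added after seeing the data, the differences had the same direction but were mostly smaller. Adora3 differed by -0.15 in cluster 0, -0.29 in cluster 1 and -0.16 in cluster 2 on the log2 scale, with adjusted p = 0.146, 0.000166 and 0.516 (edgeR). Adrb1 differed by -0.14, -0.24 and -0.19, with adjusted p = 0.563, 0.141 and 0.639, so its call was lost in all 3. Without the library as a block both calls were lost (adjusted p = 0.248 for Adora3 and 0.266 for Adrb1), while the log2 fold differences were -0.28 and -0.36.

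Cell states were compared in the same way. For each list of state genes, cells with the most list UMIs at 1000 UMIs per cell (at most 10% of cells) formed the high class, and the other cells of the same mouse the low class. The list genes were left out of the table, and no receptor gene was on a list. A class cut from such a score is a range and not a cell type, and many cells lay near the borders: 82 to 451 cells of a comparison were exactly at the border and 77 to 2332 were 1 UMI below it. The classes of different lists overlap in cells, so these comparisons are not independent of each other.

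Cells high in disease-associated-like genes, a list of genes raised in microglia of degenerating brain, had less Adora3. The class held 931 cells, 451 of them exactly at the border of 2 list UMIs. Adora3 had 169, 210.1, 119.6 and 145 CPM in the high class and 245, 217, 219.5 and 196 CPM in the low class. It was lower in the high class of all 4 libraries, by -0.33 ± 0.095 on the log2 scale (SE, adjusted p = 0.0124). It was 1 of the 4 receptor genes tested, and 1.03% of 10358 genes were lower and 4.96% higher. No other receptor gene was called, with Adrb1 at -0.10, Gabbr1 at -0.11 and Cnr2 at 0.17 (adjusted p = 0.785, 0.827 and 0.919). Of 42 tested signalling genes 2 were higher and 2 lower. Gng5 was higher (log2 fold difference 0.22), and Gna15 (-0.25) and Rgs10 (-0.17) were lower.

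The Adora3 difference did not pass the test under every setting. Of the high class, 10.4% of cells were in the unnamed cluster 5, led by MHC class II, macrophage and monocyte genes, against 0.0847% of the low class. In microglia-like clusters alone the difference was -0.20 (adjusted p = 0.263). The call was also lost with DESeq2 (adjusted p = 0.0746), without the block (0.225), with the score at 2000 UMIs (0.0851), and without replicate 1 (0.119), replicate 3 (0.171) or replicate 4 (0.106). The direction was the same in each. The difference was -0.37 (adjusted p = 0.00263) in the cells above their library's median depth, an alternative added after seeing the data, and -0.14 (adjusted p = 0.877) in the others, and the difference between these values was not tested.

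Cells with the highest share of the nuclear RNA Malat1 had more Adora3. The class held 1192 cells, with a median of 1827.5 UMIs against 2525 in the low class. Cluster 1 held 65.5% of the high class and 36.7% of the low class, and cluster 0 held 15.9% and 43.3%. Whether this cluster make-up had a part in the differences was not tested. Adora3 had 249, 257, 264 and 229 CPM in the high class and 238, 214, 209 and 188 CPM in the low class, higher in all 4 libraries, by 0.20 ± 0.068 on the log2 scale (SE, adjusted p = 0.0399). Of the 4 receptor genes 1 was thus higher and 0 lower, and 4.08% of 10175 genes were higher and 6.08% lower. Adrb1 had 85.6, 69.0, 125 and 124 CPM in the high class and 79.6, 64.7, 77.6 and 95.2 CPM in the low class. It was higher in all 4 libraries, but its difference of 0.29 ± 0.107 missed the threshold (SE, adjusted p = 0.0660). It passed with at most 20% of cells in the high class (0.38, adjusted p = 2.75e-05), with the score at 2000 UMIs (adjusted p = 0.0273) and without replicate 2 (adjusted p = 0.0451).

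In the cells at or below their library's median depth alone, which brings the depth of the Malat1 classes closer, the Adora3 difference was 0.11 (adjusted p = 0.524) and the Adrb1 difference 0.14 (adjusted p = 0.638). The Adora3 call was also lost with DESeq2 (adjusted p = 0.1005), without the block (0.240), without a filter on low counts (0.191), in microglia-like clusters alone (0.0617), with the score at 2000 UMIs (0.352) and without replicate 2 (0.159), replicate 3 (0.203) or replicate 4 (0.160). Its direction was the same in each. Among the signalling genes 0 of 41 were higher and 5 lower in Malat1-high cells, with Gnas (-0.58), Rgs10 (-0.32), Gng5 (-0.32), Gnai2 (-0.21) and Gnb2 (-0.21). Of the ligand handling genes, Slc29a3 was higher (0.22).

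The other states gave no call for any receptor gene among the 4 tested. In cells high in the exAM list, 0 were called in either direction, where 0.179% of 10602 genes were higher and 0.151% lower. Adora3 had 266, 198, 145 and 191 CPM in the exAM-high and 238, 217, 216 and 191 CPM in the exAM-low cells, with no common direction over the libraries. Adrb1 had 93.3, 64.1, 85.5 and 108 CPM in the exAM-high and 79.7, 64.9, 80.9 and 94.1 CPM in the exAM-low cells, higher in 3 of 4 libraries. Of the 994 exAM-high cells, 660 came from replicate 4, against 111, 115 and 108 from replicates 1 to 3. Without replicate 4 the number of genes called in this comparison rose from 35 to 83, and the receptor genes were still not called.

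For the microglial identity list, 0 of 4 receptor genes were called (2.39% of 10118 genes higher, 1.88% lower). Adora3 had 254, 249, 232 and 190.2 CPM in the identity-high cells and 237, 213, 211 and 191 CPM in the identity-low cells. The difference of 0.19 ± 0.063 fell just short of the threshold (SE, adjusted p = 0.0538), and it passed without replicate 4 (0.24, adjusted p = 0.0338) and with at most 20% of cells in the high class (0.15, adjusted p = 0.0411). Cluster 3, where Adora3 was highest when pooled (309.6 CPM from 66 UMIs) but not in replicate 4, held 8.18% of identity-high and 0.0698% of identity-low cells. Cluster 1 held 50.2% and 38.2%. Whether this cluster make-up had a part in the difference was not tested. Of the ligand handling genes, Abhd12 and Daglb were higher in identity-high cells, by 0.25 and 0.26 on the log2 scale. For the interferon list, 0 of 4 were called (4.89% of 10390 genes higher, 0.828% lower). Gabbr1 had 45.6, 41.4, 41.3 and 28.3 CPM in the interferon-high and 48.7, 49.2, 51.7 and 46.3 CPM in the interferon-low cells, with no overlap between the ranges, but the difference of -0.27 ± 0.181 did not pass the test (SE, adjusted p = 0.564). For ribosomal protein genes, 0 of 4 were called (4.43% of 10383 genes higher, 0.886% lower), with Adora3 at -0.15, Adrb1 at -0.17 and Gabbr1 at -0.28 on the log2 scale (adjusted p = 0.413, 0.575 and 0.341). All 3 were lower in the ribosomal-high cells of all 4 libraries. In that comparison Gng5 (0.37) and Gnas (0.26) were higher, and Pde3b (-0.41), Mgll (-0.38) and Gna15 (-0.28) were lower. The unnamed cluster 5 held 11.1% of interferon-high and 7.13% of ribosomal-high cells, against 0.314% and 0.174% of the low classes. In microglia-like clusters alone, which leaves cluster 5 out, the Gabbr1 difference in the interferon comparison was -0.14 (adjusted p = 0.951), and in the ribosomal comparison the differences were -0.03 for Adora3, -0.10 for Adrb1 and -0.18 for Gabbr1 (adjusted p = 0.931, 0.856 and 0.714).

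**Figure D3:**
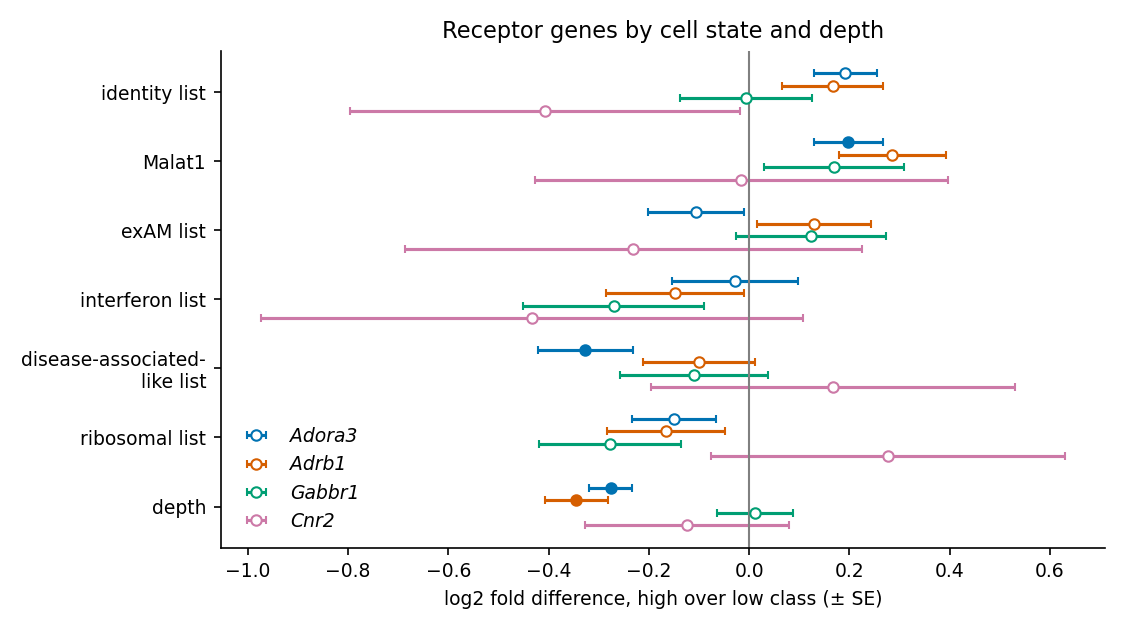
Log2 fold difference (horizontal axis, high class over low class, bars 1 SE from the edgeR test with the library as a block, n = 4 libraries) of the 4 receptor genes that passed the filter, for 6 lists of state genes and for depth (rows). Filled points have an adjusted p below 0.05: Adora3 for Malat1 (0.20), the disease-associated-like list (-0.33) and depth (-0.28), and Adrb1 for depth (-0.35).

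Clusters of cells are described without a test, since they were made from the same cells, although the receptor genes were left out of the clustering. There were 7 clusters, of which 0, 1 and 2 held 5192, 5106 and 2156 of the cells. Of the smaller clusters, 3 (187 cells, with the lowest median depth of 1062 UMIs) and 6 (78 cells, led by Lpl, Spp1 and Ccl4) were microglia-like, 4 (175 cells) was interferon-responsive microglia-like, and 5 (108 cells) stayed unnamed. Adora3 was found in every cluster. Its pooled level was 208, 236 and 204 CPM in clusters 0, 1 and 2, 309.6 CPM in cluster 3 and 241 CPM in cluster 4. The cluster 3 value came from 66 UMIs (95% exact Poisson interval 239 to 394), with 464, 390, 249 and 171 CPM in replicates 1 to 4. In replicate 4 cluster 3 was lower than clusters 0, 1 and 2. The pooled Adora3 level was lowest in cluster 5, at 79.8 CPM (95% exact Poisson interval 56.7 to 109), and cluster 6, at 82.3 CPM (53.2 to 121). In clusters 5 and 6 it was lower than in clusters 0, 1 and 2 of the same mouse in all 4 libraries.

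Adrb1 had 68.4 CPM in cluster 0 and 94.1 CPM in cluster 1, where it was the tenth of the leading genes. In replicates 1 to 4 it had 76.0, 54.6, 66.9 and 93.3 CPM in cluster 0 and 87.9, 90.6, 92.1 and 106 CPM in cluster 1, higher in cluster 1 in every library. Cluster 1 was also the shallower, with a median of 2078 UMIs against 2793.5. Adrb1 was lower in cluster 5 (40.9 CPM, interval 24.99 to 63.2) than in clusters 0, 1 and 2. Gabbr1 varied little among the 3 large clusters (46.1, 50.01 and 51.8 CPM) and had 28.6 CPM in cluster 5, from 14 UMIs (interval 15.7 to 48.0). In replicates 1 to 4 the Gabbr1 level in cluster 5 was 14.5, 36.9, 70.2 and 5.41 CPM. Replicate 3 was higher there than in its clusters 0, 1 and 2, and the other replicates were lower. In cluster 5, the share of cells with a UMI was 20.4% for Adora3 and 14.8% for Adrb1 at a median depth of 3393.5 UMIs, against 44.3% and 17.6% in cluster 0 at 2793.5 UMIs. Cnr2 had 7.52, 5.65 and 6.66 CPM in clusters 0, 1 and 2 and was seen in 0 of 175 cells of cluster 4. The floor of 3 UMIs is 6.57 CPM there, and the exact Poisson interval reaches 8.08 CPM. These counts therefore cannot tell whether Cnr2 was lower in cluster 4 than in clusters 0, 1 and 2.

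**Figure D4:**
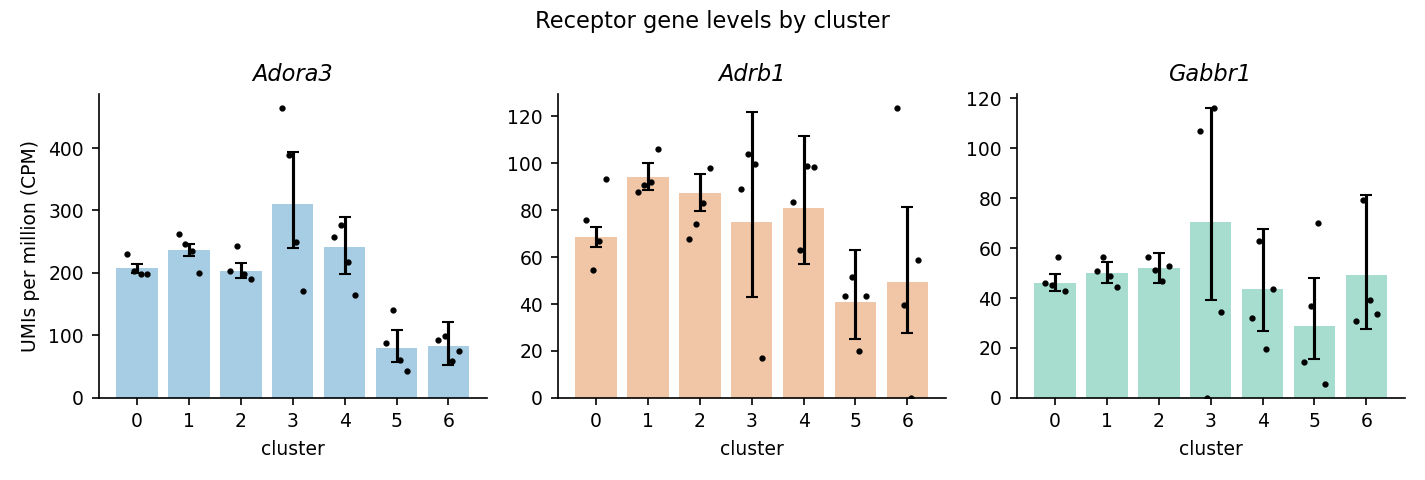
Level in CPM (vertical axes from 0) of Adora3, Adrb1 and Gabbr1 by cluster (horizontal axes). Bars pool all cells of a cluster, with 95% exact Poisson intervals for counting error, and dots are the 4 libraries from left to right. Adora3 is lowest in clusters 5 (79.8 CPM) and 6 (82.3 CPM), which hold 108 and 78 cells, and Adrb1 is higher in cluster 1 (94.1 CPM) than in cluster 0 (68.4 CPM).

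Likeness between genes was measured as Pearson's r of log2(CPM + 1) over 12 sums of cells, 1 for each of clusters 0, 1 and 2 in each library, among 7655 genes at a mean of 10 CPM or more. The 12 points share libraries and depth, and r is a description. Nearest to Adora3 were Clec2d (0.945), Gm43603 (0.899) and Acp2 (0.875). Nearest to Adrb1 were Yipf4 (0.905), Mtmr6 (0.880) and Cfl2 (0.869), and nearest to Gabbr1 were Erbb2ip (0.886), Mier1 (0.859) and Zswim6 (0.806). Among the receptor genes, r was 0.08 between Adrb1 and Adora3, 0.207 between Adora3 and Gabbr1 and -0.17 between Adrb1 and Gabbr1.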

How the data were processed

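Single-cell libraries were made by the authors with the 10x Genomics 3′ kit, version 2, and the deposited matrices held UMI counts, as whole numbers, not normalised. Per the submitters' processing notes, Cell Ranger 2.2.0, bcl2fastq and Seurat were used with mm10 (GRCm38), and the study's methods name a filtered Ensembl annotation. Droplets that Cell Ranger had not called as cells were not analysed here. The libraries, 1 per mouse, were numbered 1 to 4 in accession order, which only names them.

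Cells with under 400 genes or over 10% mitochondrial UMIs were left out (136 cells), and doublets were not removed. Counts of 7055985, 11267195, 5841671 and 9000804 UMIs per library were scaled to CPM. Exact Poisson and Clopper-Pearson intervals (95%) and the floor of 3 UMIs cover counting error only. Cells were clustered with Leiden (scanpy 1.11.5, resolution 0.5, 2000 variable genes, 20 principal components, 15 neighbours) without the receptor, exAM or related panel genes. State and depth classes were tested with edgeR 4.0.16 (quasi-likelihood, TMM, filterByExpr) with the library as a block, since both classes of a library come from 1 mouse, and p-values were Benjamini-Hochberg adjusted over all genes tested, with SEs derived from the p-values. DESeq2 1.42.0 was an alternative.

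The members and the gene lists were chosen with earlier results of these data known. The rule for named genes took the 7 genes and close partners of them (among these Gabbr2, Adora2b and Cnr1), panel genes at 10 CPM, signalling and ligand handling genes at 100 CPM, the 3 genes most like each measured gene, and Snap25. Some genes that this rule named are not reported here. Galr3 and Clec7a of these lists were not found in the gene table. All values of a gene whose copies or neighbours share sequence rest on how the authors' counting assigned them, and strand use was not given in the sources used here. Coordinates are GENCODE M21, and promoters are RefSeq.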

Additional observations from a re-analysis of the deposited data

How the results depend on the processing

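The mean level of each of the 7 receptor genes moved by less than 1 SD under every alternative scaling, cell filter and choice of cells. Shares of cells moved with depth: without thinning they were 17.8% for Adrb1, 11.4% for Gabbr1, 40.6% for Adora3, 1.67% for Cnr2 and 0.00677% for Htr2b, and at 2000 UMIs 13.5, 9.22, 33.9, 1.20 and 0.00747%. Genes with a library apart numbered 2052 without an expression filter and 148 at 50 CPM or more.

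Counts of called genes changed more. With DESeq2 they were 1 for exAM, 269 for identity, 538 for Malat1 and 486 for depth. With no replicate block (the pairing of both classes of 1 mouse removed) they were 0 for exAM, 0 for identity, 365 for interferon, 287 for disease-associated-like, 298 for ribosomal, 244 for Malat1 and 1 for depth, against 35, 432, 594, 621, 552, 1034 and 1338. In microglia-like clusters alone they were 118 for interferon, 270 for disease-associated-like and 261 for ribosomal. With at most 20% of cells in the high class exAM had 20.

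Leaving out 1 library gave 11 to 83 for exAM, 298 to 350 for identity, 424 to 576 for interferon, 389 to 648 for disease-associated-like, 342 to 493 for ribosomal, 698 to 823 for Malat1 and 812 to 1147 for depth. The count was 16, 11 and 83 for exAM without replicates 1, 2 and 4, 389 for disease-associated-like without replicate 4, 348 and 342 for ribosomal without replicates 1 and 3, and 888 and 812 for depth without replicates 1 and 2. Among alternatives added after seeing the data, cells at or below the median depth gave 20 for exAM, 275 for identity, 124 for interferon, 191 for disease-associated-like, 233 for ribosomal and 455 for Malat1, cells above it gave 193 for identity, and depth within clusters 0, 1 and 2 gave 234, 334 and 106. Fewer cells entered each of these. The Malat1 comparison above the median depth was not run, as a library had under 30 cells in a class. For the rest the cause was not tested.

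Gabbr1 and Cnr2 were not called in any of their 90 and 87 tests under alternatives. For Adora3, the 3 called comparisons lost the call in 20 of 38 such tests and the other 4 gained one in 2 of 52. For Adrb1, the 1 called comparison lost the call in 4 of 13 and the other 6 gained one in 3 of 77. Cell depth limits the genes at 0: a level under the floor of each library was not detectable.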
